A study of Mus musculus with 8 samples.

Results

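Germ cells of the testis carry their own copies of many enzymes of energy metabolism, and 10 such genes were followed here: *Ldhc*, *Pgk2*, *Pdha2*, *Gapdhs*, *Cyct*, *Cox6b2*, *Cox7b2*, *Cox8c*, *Slc25a31* and *Aldoart1*. They were chosen by name from the 55357 genes of the deposited tables as isoforms that stand in for a somatic enzyme, subunit or carrier. Of the 10, 9 were among the 20187 genes that reached 1 TPM, a level scaled for transcript length and library depth, in at least 1 library and could be tested, and *Aldoart1* was not. Each was set beside its somatic counterparts, 12 genes in all. RNA was measured in germ cells isolated from the testes of 15-day C57BL/6 males, 4 of the genotype *Mgat2*[F/F] (controls) and 4 of the genotype *Mgat2*[F/F]:*Stra8*-iCre (conditional knockout, cKO), as 8 polyA libraries sequenced without strand information. Both genotypes carried the floxed *Mgat2* alleles, and the cKO males also carried the iCre transgene, whose *Stra8* promoter is active in spermatogonia. MGAT2 is an N-acetylglucosaminyltransferase of the Golgi needed for complex N-glycans, and the comparison asks which transcripts differ in germ cells when it is deleted, at an age when meiosis is under way and spermatids are yet to form.

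Glucose is broken down to pyruvate by glycolysis, lactate dehydrogenase interconverts pyruvate and lactate, pyruvate dehydrogenase passes pyruvate into the mitochondrion's citric acid cycle, and cytochrome c and cytochrome c oxidase carry the electrons to oxygen. In spermatocytes and spermatids a testis isoform takes over at several of these steps, and spermatocytes are known to live largely on lactate from Sertoli cells. Some of the somatic genes are on the X chromosome, which is silenced in pachytene spermatocytes, and autosomal copies such as *Pgk2* and *Pdha2*, which lack introns, are expressed in their place.

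In the cKO libraries 7 of the isoforms had lower mean levels than in controls, with estimates close to 2-fold for *Pdha2*, *Cyct*, *Cox6b2* and *Cox7b2* and over 3-fold for *Ldhc*, *Cox8c* and *Pgk2*. The latter 3 moved with single libraries: without control replicate 1 their log2 fold changes were -1.15, -1.12 and -0.30, and without cKO replicate 1 they were -3.02, -2.24 and -4.77, in place of -1.95, -1.74 and -1.72. The carrier *Slc25a31* was at nearly the same level in both genotypes, and 11 of the 12 somatic counterparts had small positive differences, the exception being *Ldha*. Replicate 1 of either genotype held far more *Ldhc*, *Pgk2* and *Cox8c* than its group, and with all 8 libraries no isoform passed an adjusted p of 0.05 in edgeR's quasi-likelihood test, against 0.0396% of all genes. *Cox6b2* and *Cox7b2* were lower in every cKO library than in every control library.

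The stretch around a transcription start is shown first for 4 isoforms, the 3 whose windows held a MYB motif and *Slc25a31*, whose window held none and whose level was nearly the same in both genotypes. The sequences are RefSeq promoter windows of 300 bases, 250 before and 50 after the start of a RefSeq transcript, in a table made on GRCm38.p6, and the positions given come from their exact match to GRCm39. Capitals mark the letters TGACGT, the core of a cAMP-response element (CRE), and AACNGTT, the core of a MYB site, searched on both strands, and each sequence runs 5′ to 3′ on the gene's strand. CREs are the sites of CREM, a regulator of spermatid genes, and MYBL1 (A-MYB) is a regulator of pachytene genes.
Ldhc, chr7:46510437-46510736, plus strand: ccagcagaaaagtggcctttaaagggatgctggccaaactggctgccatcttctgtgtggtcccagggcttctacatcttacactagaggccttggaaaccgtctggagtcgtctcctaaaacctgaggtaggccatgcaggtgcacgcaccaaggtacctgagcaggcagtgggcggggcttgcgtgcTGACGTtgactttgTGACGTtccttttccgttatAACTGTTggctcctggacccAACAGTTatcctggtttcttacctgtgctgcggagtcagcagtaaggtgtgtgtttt
Cyct, chr2:76190748-76191047, minus strand: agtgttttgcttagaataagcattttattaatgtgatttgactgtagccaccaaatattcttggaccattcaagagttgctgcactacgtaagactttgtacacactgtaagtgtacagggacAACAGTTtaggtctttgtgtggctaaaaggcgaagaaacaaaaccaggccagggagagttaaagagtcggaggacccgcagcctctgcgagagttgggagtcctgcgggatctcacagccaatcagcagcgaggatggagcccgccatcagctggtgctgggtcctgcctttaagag
Pdha2, chr3:140918067-140918366, minus strand: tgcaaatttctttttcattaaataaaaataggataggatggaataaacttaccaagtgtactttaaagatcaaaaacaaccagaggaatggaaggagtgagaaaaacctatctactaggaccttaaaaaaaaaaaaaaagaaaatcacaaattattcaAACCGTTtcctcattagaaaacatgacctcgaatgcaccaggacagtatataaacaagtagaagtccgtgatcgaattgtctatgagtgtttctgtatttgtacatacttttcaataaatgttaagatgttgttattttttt
Slc25a31, chr3:40663051-40663350, plus strand: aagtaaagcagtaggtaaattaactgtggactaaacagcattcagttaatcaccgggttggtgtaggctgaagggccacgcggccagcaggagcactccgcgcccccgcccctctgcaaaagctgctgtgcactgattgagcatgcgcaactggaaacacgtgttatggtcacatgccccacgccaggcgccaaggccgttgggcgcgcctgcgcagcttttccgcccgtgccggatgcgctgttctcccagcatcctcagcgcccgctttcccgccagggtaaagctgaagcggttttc
The *Ldhc* window held TGACGT beginning 61 and 47 bases before the start and AACNGTT beginning 27 and 7 bases before it, with no overlap between them. A second *Ldhc* window, from a start further into the gene (chr7:46510661-46510960), held no TGACGT and the latter AACNGTT of the first. The windows of *Ldhc* and *Cyct* do not hold the outermost gene start of the GENCODE positions given below. *Cyct* held one AACNGTT, 127 bases before the start, and *Pdha2* one, 92 bases before. Windows were found for 8 of the 10 isoforms, all but *Cox8c* and *Aldoart1*. *Ldhc* and *Gapdhs* had 2 windows each, and a match in either was counted. TGACGT was in 2 of these 8, *Ldhc* and *Gapdhs*, and in 7.51% of 32851 mouse promoter windows, while AACNGTT was in 3 of the 8 and in 4.45% of windows. Neither was in the windows of *Pgk2*, *Cox6b2*, *Cox7b2* or *Slc25a31*, although the first 3 of these had lower mean levels in cKO. GGGCGG, the core of a GC box, was in 4 of the 8 and 35.7% of windows, and TATAAA in 2 of the 8 and 13.6%. These matches describe the letters of the windows, and binding was not measured.

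The libraries held 12584726 to 15907505 expected counts in controls and 14069373 to 15572196 in cKO, so that 3 counts, taken as the smallest signal, were worth 0.19 to 0.234 CPM, counts scaled to a common library total. *Mgat2* itself was at 31.8 to 69.8 CPM in controls and 16.03 to 37.6 CPM in cKO, a log2 fold change of -1.05 ± 0.36 (SE) with an adjusted p of 0.47 in edgeR and 0.0252 in DESeq2 (range over the other fits 0.0252 to 0.818), and 2 cKO libraries lay above the lowest control. Pachytene markers (*Hspa2*, *Piwil1* and 6 others) summed to 864 to 2053 TPM in controls and 558 to 792 TPM in cKO. Of these, 8 of 8 had negative estimates, 0 called by edgeR and 1 called lower by DESeq2 with all 8 libraries. Spermatogonial markers ran the other way, with 7 of 7 estimates positive (median 0.21) and sums of 847 to 1018 TPM against 981 to 1197 TPM, none called. The 6 early meiotic markers had estimates from -0.54 to 0.33 (median 0.02) and sums of 617 to 1047 against 637 to 871 TPM. Of 6 spermatid markers 2 were at 0 in every library and 2 could be tested. The 8 Sertoli cell markers summed to 1603 to 2097 TPM against 1752 to 2095 TPM, the 5 Leydig cell markers to 35.3 to 87.7 against 48.3 to 71.9 TPM, and with all 8 libraries no marker of these or of the myoid, macrophage, endothelial or erythroid lists was called. The part of these cell types in the isoforms' levels was not tested. In RNA from mixed cells, fewer cells of a type and less RNA per cell cannot be told apart. Nothing in the labels says whether numbered libraries shared a litter or a preparation.

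The plot of the isoforms' levels shows all 8 libraries.

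**Figure D1:**
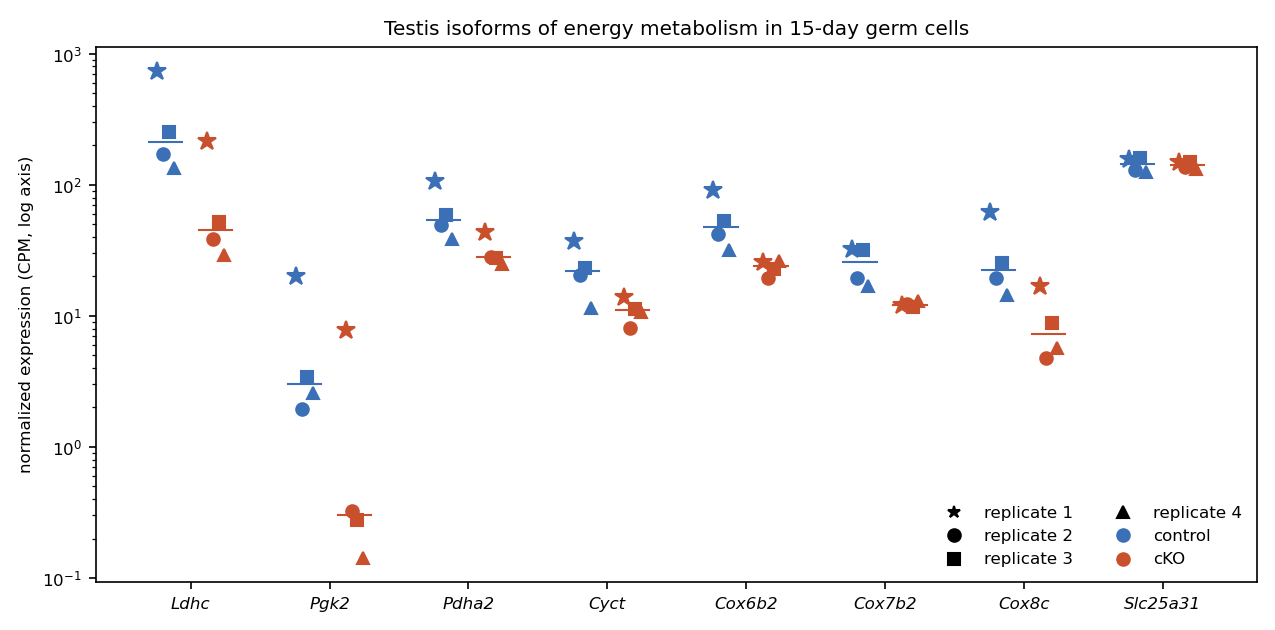
Normalized expression (CPM, log axis) of 8 testis isoforms in each control (blue) and cKO (red) library, with the group median as a line and a symbol for each replicate number. Replicate 1 (star) is the highest library of both groups for *Ldhc*, *Pgk2*, *Pdha2*, *Cyct* and *Cox8c*, while *Cox6b2* and *Cox7b2* do not overlap between groups, and *Slc25a31* lies between 125 and 160 CPM in all 8.

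On the per-length TPM scale the control means, in descending order, were 540 for *Ldhc*, 392 for *Cox6b2*, 315 for *Cox8c*, 167 for *Cox7b2*, 122 for *Slc25a31*, 103 for *Cyct*, 47.5 for *Pdha2* and 8.16 for *Pgk2*. Neighbours in this order overlapped in range across the 4 controls down to *Pdha2*, and only *Pgk2*, at 2.33 to 23.3 TPM, lay wholly under *Pdha2*, at 29.8 to 78.3 TPM. In cKO the order was *Cox6b2* (168 TPM), *Ldhc* (139), *Slc25a31* (119), *Cox8c* (91.6), *Cox7b2* (80.4), *Cyct* (48.7), *Pdha2* (23.3) and *Pgk2* (2.43). There *Cyct*, *Pdha2* and *Pgk2* were each wholly under the gene before them, whereas the first 5 overlapped their neighbours. *Ldhc*, *Cox8c* and *Cox7b2* each stood 1 place lower in the cKO order than in the control order. The place of *Ldhc* in cKO rested on replicate 1, since the other cKO libraries had 46.0 to 85.7 TPM, under the 113 to 125 TPM of *Slc25a31*.

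*Ldhc* (ENSMUSG00000030851, GRCm39 chr7:46509777-46527794, plus strand, 8 exons) encodes the lactate dehydrogenase C subunit of spermatocytes, spermatids and sperm. In order of replicate number it drew 10815, 2643, 4037 and 1713 expected counts from the controls and 3258, 598, 739 and 408 from the cKO libraries. After normalization these were 734, 171, 255 and 134 CPM against 216, 38.7, 51.6 and 28.9 CPM. Control replicate 1 was far above the other controls, and cKO replicate 1 lay within the control range, so the groups overlapped. In edgeR the log2 fold change was -1.95 ± 0.89 (SE), a 3.86-fold lower level, with an adjusted p of 0.593 (range over the fits 2.78e-133 to 0.819, the lowest from 3 libraries a group). Without replicate 1 of both groups the groups did not overlap and the estimate was -2.24 ± 0.37, with an adjusted p of 0.0665 in edgeR and 1.02e-07 in DESeq2. This comparison was chosen because replicate 1 was known to stand apart, and leaving out an extreme library narrows the spread. Its p-values, here and for the isoforms below, are therefore not independent of that choice. *Ldhc* shares 464 bases of its exons with an antisense long noncoding RNA, *Gm39011*, and reads of the 2 cannot be told apart in libraries without strand.

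*Ldha*, the somatic gene of the muscle-type subunit, lies 4715 bases upstream of *Ldhc* on the same strand. Among the 12 counterparts it was alone in being lower in cKO, at 348, 100.4, 150.4 and 94.8 CPM in controls and 116, 63.3, 60.0 and 50.2 CPM in cKO, with a log2 fold change of -1.26 ± 0.52 and an adjusted p of 0.56. Its profile followed that of *Ldhc* in the rank of replicate 1, which was 3.02 times the mean of the other controls for *Ldha* and 3.93 times for *Ldhc*. In cKO the likeness was weaker. There replicate 1 of *Ldha* was at 116 CPM against 50.2 to 63.3 CPM, whereas replicate 1 of *Ldhc* was 5.44 times the mean of the other cKO libraries. *Ldhb*, of the heart-type subunit, differed by 0.12. The longest identical stretch between the *Ldhc* and *Ldha* transcripts was 20 bases, and every expected count of *Ldhc* was a whole number, as it was for all 10 isoforms. Of the *Ldha* exons, 655 bases (13.8%) overlap antisense long noncoding RNAs, among them the same *Gm39011* that overlaps *Ldhc*. Without strand, reads of *Gm39011* cannot be told apart from those of either gene where they overlap. Its part in the likeness of *Ldha* and *Ldhc* was not tested.

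*Pgk2* (ENSMUSG00000031233, chr17:40517906-40519531, minus strand, 1 exon) is the autosomal, intronless copy of the X-linked phosphoglycerate kinase *Pgk1*, an ATP-producing enzyme of glycolysis. It had 299, 30, 54 and 33 counts in controls and 117, 5, 4 and 2 in cKO, or 20.3, 1.95, 3.41 and 2.58 CPM against 7.77, 0.324, 0.279 and 0.142 CPM. Most of its reads in either genotype came from replicate 1. Its level was 7.68 times the mean of the other controls and 31.3 times that of the other cKO libraries. With all libraries the log2 fold change was -1.72 ± 1.43 and the adjusted p 0.753. Among replicates 2 to 4 it was -3.36 ± 0.53 with an adjusted p of 2.28e-05 (range over the fits 9.83e-08 to 0.985), on cKO counts near or under the 3-count floor. That p-value follows from leaving out the library that stood apart in *Pgk2* itself in both groups. DESeq2 gave no p for *Pgk2* with all 8 libraries.

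*Gapdhs* (ENSMUSG00000061099, chr7:30429200-30443106, minus strand) encodes the glyceraldehyde-3-phosphate dehydrogenase of sperm and appears in spermatids. It had 4 counts in control replicate 3 and 0 in the other 7 libraries, and entered the tested set through that library alone, at 1.05 TPM. No fold change is given for it. *Aldoart1* (ENSMUSG00000059343, chr4:72768820-72770871, minus strand, 1 exon), a retrogene of aldolase A, had 0 counts in all 8 libraries, which at this depth allows up to 0.234 CPM in a single library. It shares up to 86 identical bases in a row with the *Aldoa* transcript, more than the 9 to 22 bases of the other pairs, so that some reads could have been assigned to *Aldoa*. The expected counts of *Aldoa* were whole numbers in every library, and such assignment was not tested.

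*Pdha2* (ENSMUSG00000047674, chr3:140882078-140918116, minus strand, 1 exon in its main transcript) encodes the testis alpha subunit of pyruvate dehydrogenase, and its somatic counterpart *Pdha1* is on the X chromosome. It was at 106, 49.1, 58.6 and 38.3 CPM in controls and 43.9, 28.3, 27.4 and 24.8 CPM in cKO. Only cKO replicate 1 reached into the control range. Its log2 fold change was -1.02 ± 0.35, with an adjusted p of 0.476 in edgeR and 0.0292 in DESeq2 (range over the fits 6.64e-14 to 0.818). Among replicates 2 to 4 it was -0.86 ± 0.13, and the adjusted p was 0.000185. Of its annotated exons, 36.7% overlap an antisense noncoding RNA, *Gm66015*.

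*Cyct* (ENSMUSG00000056436, chr2:76184284-76196373, minus strand) encodes testis cytochrome c. It was at 37.4, 20.7, 23.1 and 11.5 CPM in controls and 13.9, 8.02, 11.4 and 10.8 CPM in cKO. Control replicate 4 was inside the cKO range, and the remaining controls were above it. edgeR estimated a log2 fold change of -1.07 ± 0.33, with an adjusted p of 0.426 in edgeR and 0.0361 in DESeq2 (range over the fits 1.04e-05 to 0.818).

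Cytochrome c oxidase, the last complex of the electron transport chain, has testis forms of several of its small nuclear-encoded subunits. *Cox6b2* (ENSMUSG00000051811, chr7:4754789-4756093, minus strand) had 91.9, 42.1, 53.0 and 31.9 CPM in controls and 25.8, 19.6, 22.7 and 26.2 CPM in cKO. Its 4 cKO libraries were close together and all under the lowest control. Its log2 fold change was -1.22 ± 0.32, a 2.32-fold lower level, with an adjusted p of 0.357 in edgeR and 0.002 in DESeq2 (range over the fits 4.51e-08 to 0.818).

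*Cox7b2* (ENSMUSG00000049387, chr5:71598701-71705630, minus strand) is the autosomal testis form of a subunit whose somatic gene, *Cox7b*, is X-linked. It was at 32.7, 19.4, 31.8 and 16.9 CPM in controls and 12.1, 12.3, 11.6 and 13.0 CPM in cKO, again with no overlap. The cKO libraries spanned little more than 1 CPM, and replicate 1 was not the highest of them. It differed by a log2 fold change of -1.04 ± 0.21, with an adjusted p of 0.182 in edgeR and 0.00117 in DESeq2 (range over the fits 4.84e-07 to 0.695). Its unadjusted p of 0.000301 was the lowest among the isoforms.

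*Cox8c* (ENSMUSG00000043319, chr12:102865530-102866797, plus strand) is the testis form of subunit 8. It was at 62.2, 19.5, 25.5 and 14.4 CPM in controls and 17.0, 4.79, 8.86 and 5.67 CPM in cKO. As with *Ldhc*, replicate 1 was the highest of both groups, and cKO replicate 1 lay above control replicate 4. The log2 fold change was -1.74 ± 0.62 with an adjusted p of 0.499. Among replicates 2 to 4 it was -1.63 ± 0.26, with an adjusted p of 0.00489 (range over the fits 5.17e-20 to 0.818).

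*Slc25a31* (ENSMUSG00000069041, chr3:40663285-40680527, plus strand, 6 exons) encodes the germ cell ADP/ATP carrier of the mitochondrial inner membrane, ANT4, which exports the ATP made there. It was at 158, 129.9, 159.7 and 125 CPM in controls and 149, 136, 149 and 131 CPM in cKO, and the cKO libraries all lay inside the control range. The log2 fold change was -0.02 ± 0.09 with an adjusted p of 0.975. The gene had 1600 to 2528 counts per library.

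The 8 tested isoforms other than *Gapdhs* all had negative estimates, although that of *Slc25a31* was near 0 and changed sign between fits. *Gapdhs* was left out because it entered the tested set through 1 control library alone. The median of the 8 was -1.14 (-1.22 with *Gapdhs*), against a median of 0.01 over the 20187 genes tested and 48.6% negative among them. Of the 9 tested isoforms, 5 had an unadjusted edgeR p under 0.05 and were lower, namely *Pdha2*, *Cyct*, *Cox6b2*, *Cox7b2* and *Cox8c*, against 6.28% of all genes. A log2 fold change of -1 or lower was seen in 7 of the 8, against 9.88% of all genes. Groups without overlap, lower in cKO, were seen in 2 of the 9, against 3.03%. DESeq2 called 4 of the 9, *Pdha2*, *Cyct*, *Cox6b2* and *Cox7b2*, and 1.41% of all genes, as lower. The 2 tools used the same 8 libraries and gave nearly the same fold changes. limma-voom and edgeR with its own expression filter called no gene of the whole table, although 1450 and 1126 genes, respectively, were lower at an unadjusted p under 0.05.

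**Figure D2:**
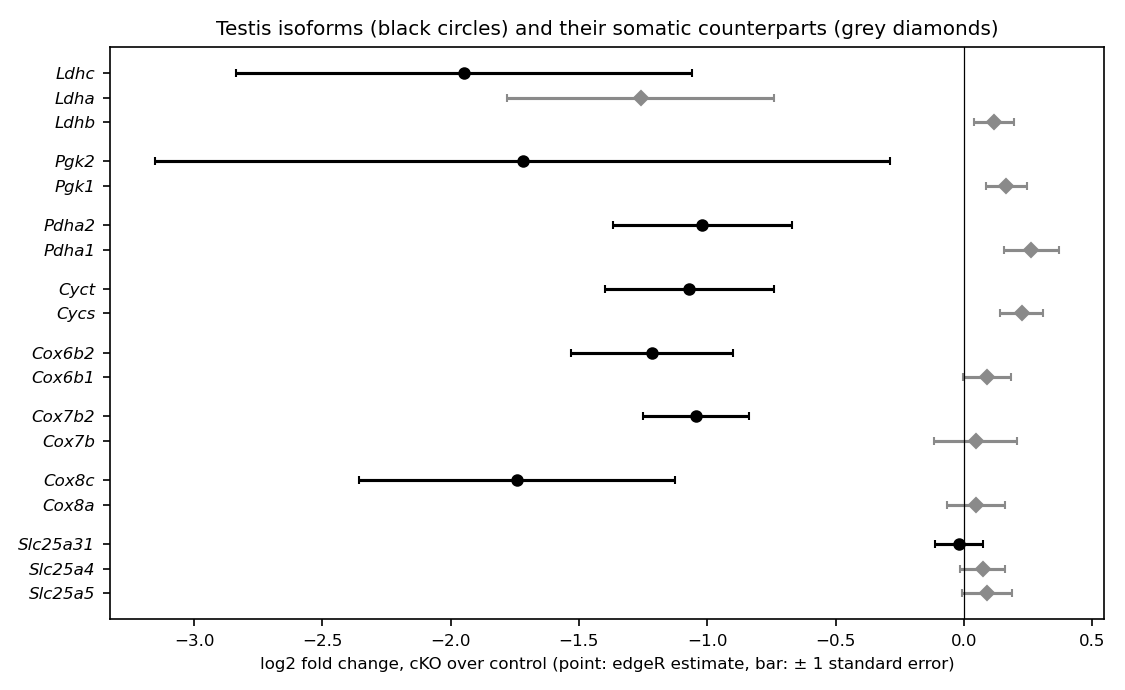
Log2 fold change of cKO over control for 8 testis isoforms (black circles) and their somatic counterparts (grey diamonds), with bars of ± 1 standard error from edgeR. The isoforms from *Ldhc* to *Cox8c* lie between -1.95 and -1.02, *Slc25a31* lies at -0.02, and all counterparts but *Ldha* lie between 0.05 and 0.26.

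Replicate 1 stood apart in both genotypes. Its level relative to the mean of replicates 2 to 4 was 3.93 in controls and 5.44 in cKO for *Ldhc*, and 3.14 and 2.64 for *Cox8c*. For *Pdha2* it was 2.18 and 1.63, for *Cyct* 2.03 and 1.39, for *Cox6b2* 2.17 and 1.13, and for *Cox7b2* 1.44 and 0.983. *Slc25a31* was at 1.14 and 1.08. Thus the isoforms with the largest estimates were also those that varied most within a genotype. The same libraries stood apart in the sum of 6 immediate-early genes, with 589 and 632 TPM in the control and cKO replicate 1 against 1829 to 2277 TPM in the other 6 libraries, and in the pachytene sum, where control replicate 1 was the highest control and cKO replicate 1 the highest cKO library. The part of these differences between libraries in the isoforms' levels was not tested.

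Among replicates 2 to 4 alone, a comparison chosen because replicate 1 was known to stand apart, edgeR called 5 of the 9 as lower, *Pgk2*, *Pdha2*, *Cox6b2*, *Cox7b2* and *Cox8c*, against 3.78% of all genes, and DESeq2 called these with *Ldhc* and *Cyct*, 7 in all, against 4.12%. The groups did not overlap for 7 of the 9, against 10.6% of all genes. These counts are not independent of the choice, since replicate 1 stood apart in the isoforms themselves. In the same fits the myoid marker *Myh11* was called higher in cKO (log2 fold change 0.27, adjusted p = 0.0113 in edgeR and 0.0112 in DESeq2, range over the fits 0.0005 to 0.979), *Acta2* was called by DESeq2 alone (adjusted p = 0.0426, range 0.00348 to 0.985), and 1 of 8 pachytene markers was called lower by edgeR and 4 by DESeq2. Of the 6 early meiotic markers, edgeR called 1 lower and *Dmc1* higher (log2 fold change 0.25, adjusted p = 0.0447, range over the fits 0.00363 to 0.828). DESeq2 called 1 of them lower. Among replicates 2 to 4, estimates for *Pdha2*, *Cyct*, *Cox6b2* and *Cox7b2* came together between -0.90 and -0.86.

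**Figure D3:**
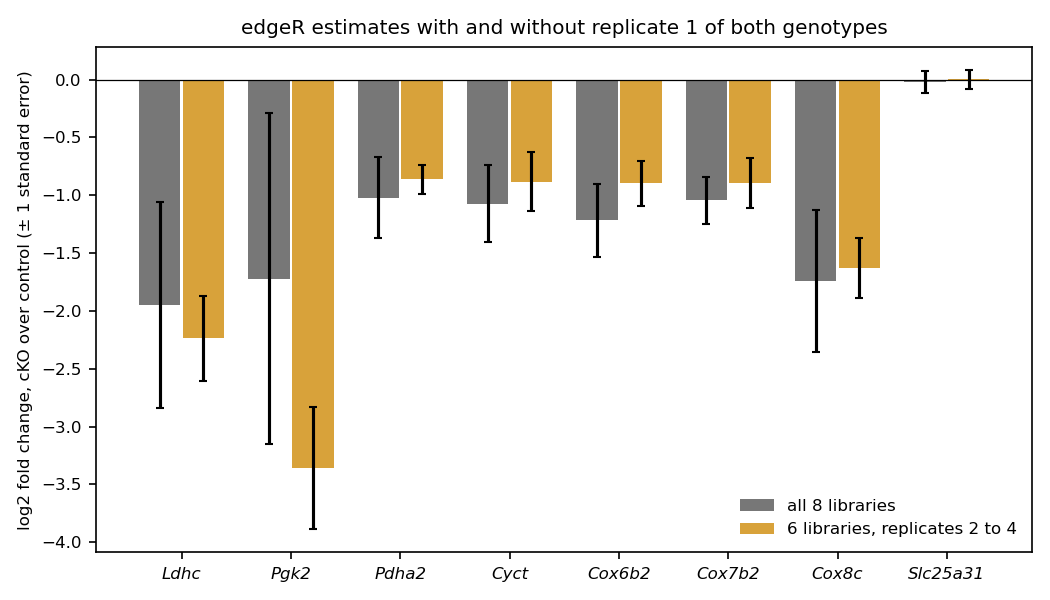
Log2 fold change of cKO over control for 8 isoforms from edgeR with all 8 libraries (grey) and with replicates 2 to 4 of each genotype (orange), with bars of ± 1 standard error. Leaving out replicate 1 moves *Pgk2* from -1.72 to -3.36 and narrows the error of *Ldhc* from 0.89 to 0.37, while *Slc25a31* stays near 0.

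A share within an isozyme pool compares isoform and counterpart in the same library and does not depend on scaling between libraries. The share was computed as the isoform's TPM over the sum of isoform and counterparts, and each difference was set against the 70 ways of dividing 8 libraries into groups of 4 (two-sided exact permutation test), which cannot give a p below 0.0286. Shares were computed for the 9 isoforms with any counts and their p values are unadjusted. Only 2 pairs were at that lowest p, too few for any to pass 0.05 after Benjamini-Hochberg adjustment over the 9.

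In controls, the testis form held most of the pool in TPM for 3 pairs. *Cox7b2* made up 91.2, 84.7, 88.6 and 81.3% of the *Cox7b2* and *Cox7b* pool in controls and 79.9, 74.0, 74.2 and 79.0% in cKO (means 86.4 ± 4.4 and 76.8 ± 3.1%, SD, n = 4, exact permutation p = 0.0286). *Cox6b2* made up 71.0, 55.8, 64.3 and 49.6% of its pool with *Cox6b1* in controls and 40.8, 38.3, 39.2 and 43.3% in cKO (means 60.2 ± 9.4 and 40.4 ± 2.2%, n = 4, exact permutation p = 0.0286). For both, all cKO libraries were under all controls. In *Cox6b2* the testis form outweighed the somatic one in TPM in 3 of 4 controls and in 0 of 4 cKO libraries.

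*Pdha2* held 84.8, 68.0, 72.1 and 58.6% of the pyruvate dehydrogenase alpha pool in controls and 66.0, 50.6, 49.1 and 48.0% in cKO (exact permutation p = 0.0571, n = 4). *Cox8c* held 69.7, 38.4, 48.9 and 29.9% of its pool with *Cox8a* against 32.6, 12.6, 25.3 and 17.0% (exact permutation p = 0.0571, n = 4). In these 2 pairs only cKO replicate 1 was above the lowest control.

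*Ldhc* held 52.1, 22.0, 29.0 and 17.5% of the *Ldhc*, *Ldha* and *Ldhb* pool in controls and 26.0, 5.83, 7.73 and 4.52% in cKO (exact permutation p = 0.0857, n = 4). *Cyct* held a mean of 35.3 ± 14.4% against 19.8 ± 3.8% of the cytochrome c pool (exact permutation p = 0.114, n = 4). The shares of *Cyct* and *Cox7b2* changed most with the scaling for length. Computed from CPM, that of *Cyct* differed by -4.80 percentage points (exact permutation p = 0.0571, n = 4), in place of -15.6 from TPM. That of *Cox7b2* differed by -16.0 percentage points from CPM, in place of -9.64 from TPM (exact permutation p = 0.0286 each, n = 4). *Pgk2* held 10.1 ± 11.8% against 2.96 ± 5.15% (exact permutation p = 0.371, n = 4), and *Slc25a31* held 22.2 ± 4.1% against 20.9 ± 2.1% of the ADP/ATP carrier pool with *Slc25a4* and *Slc25a5* (exact permutation p = 0.6, n = 4). *Pgk2* was thus the minor kinase in every library, and *Gapdhs* was at 0.100% of its pool in the one library that had any.

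**Figure D4:**
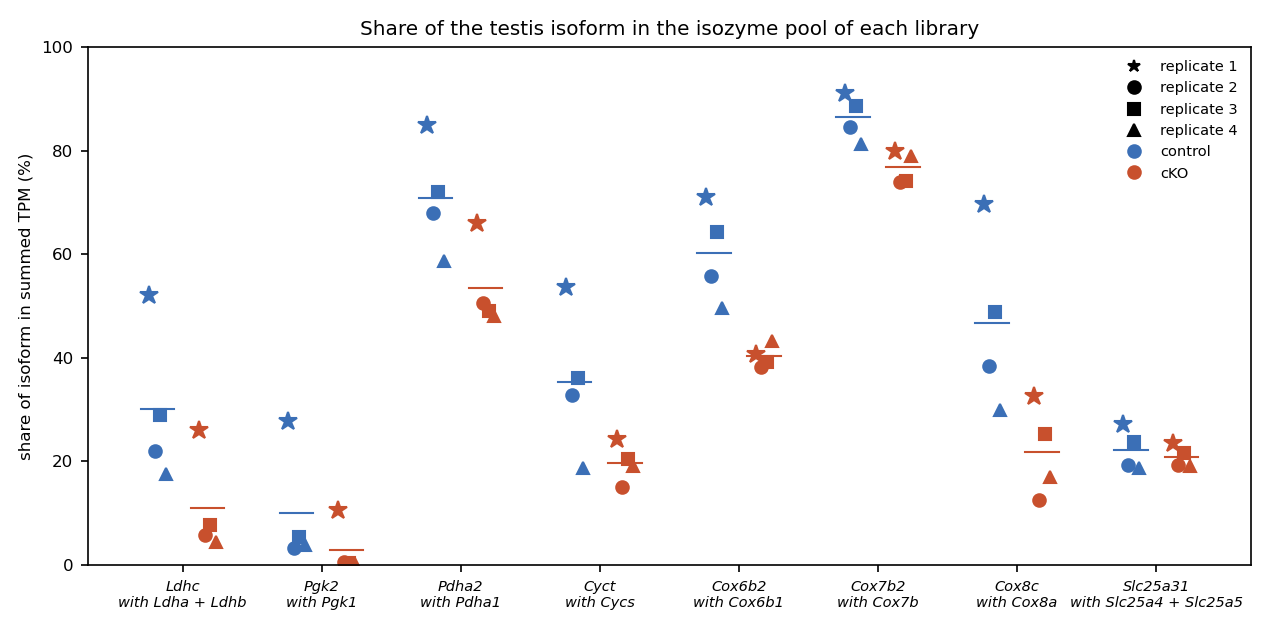
Share of the testis isoform (percent of summed TPM, 0 to 100) in the pool with its somatic counterparts in each control (blue) and cKO (red) library, with the group mean as a line and a symbol for each replicate number. *Cox6b2* and *Cox7b2* do not overlap between groups, replicate 1 (star) is the highest of both groups for 7 of the 8 pairs, all but *Cox6b2*, and *Slc25a31* lies between 18.7 and 27.3% throughout.

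Some of the pools also differed in their totals. The pyruvate dehydrogenase alpha pool was 64.9 ± 18.7 TPM in controls and 43.1 ± 4.0 TPM in cKO, the cytochrome c pool 288 ± 16 against 246 ± 8 TPM, and the *Cox7b* pool 191 ± 53 against 104.8 ± 7.0 TPM, each with an exact permutation p of 0.0286 (n = 4). The summed level of these pairs was therefore lower although the counterpart in each was slightly higher or level. The Pgk pool, in which *Pgk1* predominates, was 76.4 ± 6.3 against 77.6 ± 4.3 TPM (exact permutation p = 0.771, n = 4). The ADP/ATP carrier pool was 554 ± 50 against 572 ± 32 TPM (exact permutation p = 0.543, n = 4). The *Cox6b* pool was 630 ± 205 against 415 ± 33 TPM and the *Cox8* pool 620 ± 216 against 403 ± 71 TPM (exact permutation p = 0.0571 each, n = 4). The lactate dehydrogenase pool was 1609 ± 480 against 1157 ± 161 TPM (exact permutation p = 0.0857, n = 4). Higher in cKO was the *Gapdh* pool, at 1035 ± 70 against 1147 ± 53 TPM (exact permutation p = 0.0571, n = 4). These p values are unadjusted over the 9 pools.

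Of the 12 counterparts, 11 had positive estimates, from 0.05 for *Cox7b* and *Cox8a* to 0.26 for *Pdha1*, against a median of 0.01 over all genes, those of *Cox7b* and *Cox8a* changing sign when single libraries were left out. With all 8 libraries none was called by edgeR or DESeq2, and among replicates 2 to 4 DESeq2 called *Ldha* as lower (adjusted p = 0.00144, range over the fits 5.03e-19 to 0.818). In CPM, groups without overlap, higher in cKO, were seen in 2 of the 12, against 2.47% of all genes. *Gapdh*, the ubiquitous glycolytic enzyme, was one of the 2, at 768 to 832 against 684 to 760 CPM (0.15 ± 0.06, adjusted p = 0.539). *Cycs*, somatic cytochrome c, was the other, at 298 to 324 against 227 to 293 CPM (0.23 ± 0.08, adjusted p = 0.461). In TPM the groups of both genes overlapped. Control replicate 4, at 1101 TPM for *Gapdh* and 220 TPM for *Cycs*, lay above cKO replicate 3, at 1072 and 197 TPM. The expected counts of both genes were not whole numbers in any of the 8 libraries. The 4 X-linked counterparts, *Pgk1*, *Pdha1*, *Cox7b* and *Slc25a5*, differed by 0.16, 0.26, 0.05 and 0.09, and the autosomal ones other than *Ldha* by 0.05 to 0.23.

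Because *Slc25a31* was steady, the other isoforms were also expressed relative to it within each library, a choice made after its values were seen. The log2 ratio of counts was lower in cKO by 0.94 for *Pdha2*, 1.10 for *Cox6b2*, 0.97 for *Cox7b2* and 1.68 for *Cox8c*, with no overlap between groups (exact permutation p = 0.0286 each, n = 4). It was lower by 0.96 for *Cyct* (p = 0.0571) and by 2.09 for *Ldhc* (p = 0.0857), where the groups overlapped in the same exact permutation test. Of all genes tested, 3.7% had ratios to *Slc25a31* that were lower in cKO without overlap.

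The profiles over the 8 libraries were compared by centring each gene's log2 CPM on its mean and taking the root mean square (RMS) of the differences, a measure on the log2 scale in which 0 is identity. The 10392 genes with a mean of at least 10 CPM were searched, which left out *Pgk2*. *Cyct* and *Cox6b2* were the most alike pair of isoforms, with an RMS of 0.18, followed by *Cyct* and *Pdha2* with 0.22. *Ldhc* was nearest to *Cox8c*, with 0.44, and both were far from *Slc25a31*, with 1.41 and 1.05. The isoforms therefore formed no single profile: *Ldhc* and *Cox8c* varied widely, *Pdha2*, *Cyct*, *Cox6b2* and *Cox7b2* less so, and *Slc25a31* hardly at all.

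The genes nearest to each isoform in the whole table were then named, the nearest 2 in each case. They were *Cfap206* (RMS 0.113) and *Slc2a3* (0.130) for *Ldhc*, *Hspa2* (0.0371) and *Pfn4* (0.0499) for *Pdha2*, and *Spata33* (0.109) and *Spa17* (0.158) for *Cyct*. *Slc2a3* is the high-affinity glucose transporter GLUT3, *Hspa2* a heat shock protein of pachytene spermatocytes, and *Cfap206* a protein of cilia and flagella. *Cfap69* (0.144) and *Pbx4* (0.149) were nearest to *Cox6b2*, *Dnah7b* (0.146) and *Ttc16* (0.151) to *Cox7b2*, and *Gm20621* (0.144) and *Pdcl2* (0.172) to *Cox8c*. *Fam133b* (0.0424) and *Trim23* (0.0429) were nearest to *Slc25a31*. The measure includes the difference between genotypes, so genes near an isoform share its direction by construction.

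**Figure D5:**
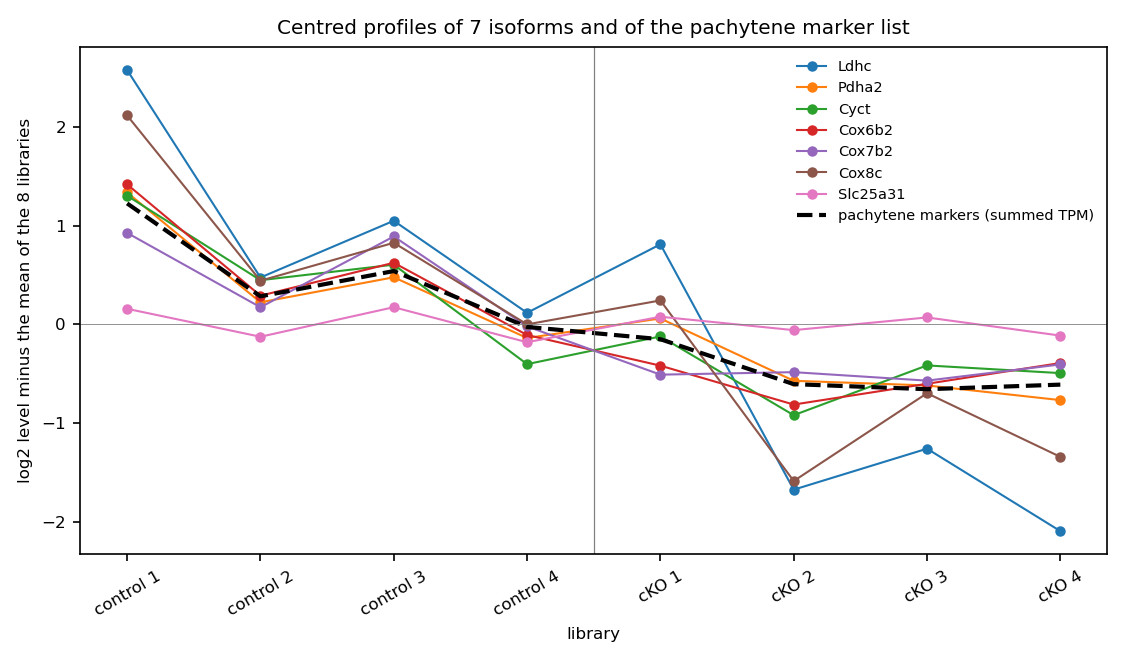
Log2 CPM of 7 isoforms in each library, centred on the gene's mean over the 8 libraries, with the centred log2 sum of TPM over 8 pachytene markers as a dashed line (the lines join libraries that have no order). *Ldhc* and *Cox8c* span the widest range, *Slc25a31* is nearly flat, and the remaining 4 run close to the marker sum, which was 864 to 2053 TPM in controls and 558 to 792 TPM in cKO.

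Genes of the same pathways were also described from lists. Some lists hold counterparts already given, such as *Ldha* among the glycolytic genes and *Cycs* among those of cytochrome c and its oxidase. Of another 10 testis forms of energy enzymes, all 9 that could be tested had negative estimates (48.6% of all genes), with a median of -1.61. Of these estimates, 7 were at -1 or lower, against 9.88% of all genes. The largest were those of *Gykl1* (-1.88), a glycerol kinase-like gene, *Ldhal6b* (-1.74), a lactate dehydrogenase-like retrogene whose exon lies wholly within an antisense noncoding gene, and *Prps1l1* (-1.72), a testis phosphoribosyl pyrophosphate synthetase. The summed TPM of the 10 was highest in replicate 1 of both groups. It was 476 TPM against 117 to 204 TPM in the other controls, and 174 TPM against 53.1 to 61.2 TPM in the other cKO libraries. None of the 9 was called by edgeR. The adenylate kinase *Ak7* came nearest, with 11.6 to 21.9 CPM in controls and 5.50 to 7.502 CPM in cKO, no overlap, a log2 fold change of -1.37 ± 0.21 and an adjusted p of 0.0509, and DESeq2 called it (adjusted p = 2.04e-06, range over the fits 6.96e-11 to 0.339).

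The general enzymes of the same steps were mostly level. The 19 glycolytic genes had a median of 0.06, the 14 genes of pyruvate entry 0.08, the 16 of the citric acid cycle -0.02, the 15 of cytochrome c and its oxidase -0.07 and the 10 of transport 0.01, with 0 called by edgeR in each and 4, 1, 0, 0 and 1, respectively, lower and 1, 3, 1, 1 and 0 higher at an unadjusted p under 0.05. DESeq2 called 1 glycolytic gene and 1 of pyruvate entry as lower and none of the other lists. The glycolytic one was *Eno3*, muscle-type enolase, at 31.5 to 44.5 CPM in controls and 21.3 to 26.2 CPM in cKO (-0.66 ± 0.13, no overlap, DESeq2 adjusted p = 0.00163, range over the fits 7.94e-08 to 0.644). The one of pyruvate entry was *Dlat*, the E2 subunit of pyruvate dehydrogenase, at 74.3 to 132 CPM against 51.3 to 70.2 CPM (-0.64 ± 0.18, no overlap, DESeq2 adjusted p = 0.0333, range over the fits 1.82e-08 to 0.818).

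Single genes of these lists had estimates as low as those of the isoforms. *Pgam2*, muscle-type phosphoglycerate mutase, was at 75.3, 11.5, 19.1 and 7.11 CPM in controls and 16.9, 1.81, 1.68 and 0.988 CPM in cKO (-2.40 ± 1.21, adjusted p = 0.619). Like *Pgk2* and *Ldhc* it was highest in replicate 1 of both groups. *Slc2a3* and *Slc2a5*, transporters of glucose and of fructose, had estimates of -1.88 ± 0.85 and -2.03 ± 0.95, and the lactate and pyruvate transporter *Slc16a7* one of -0.97 ± 0.39, none of them called.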

How the data were processed

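The authors aligned paired-end reads of non-stranded polyA libraries to the mouse genome (GRCm39, Ensembl release 105) with STAR 2.7.9a and quantified genes with RSEM 1.3.3. The deposited expected counts are RSEM estimates per gene and sample, with no filter or scaling. The deposited TPM values are scaled by the authors within each library for length and depth. Of the expected counts above 0, 15.2% were not whole, and all were rounded here. The 20187 genes that reached 1 TPM in 1 or more of the 8 samples were tested with edgeR 4.0.16 (TMM, robust quasi-likelihood test, genotype alone). P-values were adjusted by Benjamini-Hochberg over all of them, and a gene is "called" past 0.05. Fold changes are cKO over control, and CPM use TMM factors. DESeq2 1.42.0, limma 3.58.1 and other settings were alternatives. Shares, pools and ratios were compared with exact permutation tests. P-values measure the spread between 4 samples a group. Floors cover counting error only. Values after ± are SDs over 4 samples or standard errors back-calculated from the F statistic of the edgeR test, and they include the spread between samples. For replicates 2 to 4 the standard errors and p-values rest on 3 samples a group. Gene positions are from GENCODE M39, promoter windows from RefSeq. The scripts were tested on simulated counts. Tools were R 4.3.3, Python 3.11.15, numpy 2.4.6 and pandas 2.3.3. The isoforms and gene lists were chosen with earlier results of these data known. Genes named from each list were the 3 tested genes of at least 1 CPM on average with the largest absolute log2 fold change, and *Ak7* was added after its values were seen.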

Additional observations from a re-analysis of the deposited data

Results flagged for a closer look

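In 41 sets of 4 libraries, 1 for each gene and genotype examined, the highest or lowest library was compared with its group, a check that chance meets in about 1 of 20 sets. It found 4 such sets, in 3 libraries. *Ldhc* was at 216 CPM in cKO replicate 1 against 28.9 to 51.6 CPM in the other cKO libraries. *Pgk2* was at 20.3 CPM in control replicate 1 against 1.94 to 3.41 CPM, and at 7.77 CPM in cKO replicate 1 against 0.142 to 0.324 CPM. *Gapdhs* was at 0.253 CPM in control replicate 3 and at 0 in the other controls, which rests on 4 counts. The first 3 all concern replicate 1.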

How the results depend on the processing

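With all 8 libraries and edgeR, 8 genes and 0 isoforms were called. DESeq2 called 302 genes and 4 isoforms, edgeR with upper-quartile factors 18 genes, with library totals 17, with no expression filter 35 genes and 1 isoform (*Cox7b2*), and edgeR's own filter, limma-voom and limma-trend on log2(TPM + 1) called 0 genes. Replicates 2 to 4 gave 855 genes and 5 isoforms with edgeR, and 899 and 7 with DESeq2, both with 7 isoforms whose groups did not overlap for replicates 2 to 4. Leaving out 1 library at a time gave 0 to 32 genes and 0 to 1 isoform (*Cox7b2*, without control replicate 4), 2 to 7 isoforms without overlap (5 without control replicate 4, against 5.66% of all genes, and 7 without cKO replicate 1, against 8.97%) and a median log2 fold change of the isoforms from -1.40 to -0.84. Shares with an exact permutation p under 0.05, 2 with all libraries from TPM and 2 from CPM, numbered 0 for replicates 2 to 4, where 3 against 3 cannot go below 0.1, and 0 to 4 without 1 library (4 without control replicate 4).

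The replicate number was also fitted as a block. Deviations of same-numbered libraries correlated at 0.53, 0.14, 0.04 and 0.20 for replicates 1 to 4, so pair 3 was under 0.1 and the numbers were not taken to pair the libraries. The block gave 1464 genes and 6 isoforms, against 6.45% of all genes called lower, with *Cox6b2* the one of the 7 not called (adjusted p = 0.165), and it also called *Ldha* lower (0.0497) and *Cycs* higher (0.0458). The block with replicates 2 to 4 alone, chosen after seeing the data as was DESeq2 there, gave 1199 genes and 7 isoforms.

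Signs changed only for values near 0. *Slc25a31* became 0.0096 with upper-quartile factors, 0.0014 for replicates 2 to 4, 0.0089 with the block there, and -0.073 to 0.038 without 1 library. *Cox8a* became -0.052, -0.054 (block) and -0.059 (DESeq2) for replicates 2 to 4 and -0.022 to 0.108 without 1 library, *Cox7b* -0.023 to 0.114. The *Slc25a31* share differed by -2.53 to 0.347 percentage points without 1 library. *Ldhc*, *Pgk2*, *Pdha2*, *Cyct*, *Cox6b2*, *Cox7b2* and *Cox8c* were lower in every fit run. *Pgk2* ranged most without 1 library, from -4.77 to -0.30, then *Ldhc*, from -3.02 to -1.15, and *Cox8c*, from -2.24 to -1.12. What depth limits is *Pgk2* in cKO replicates 2 to 4, *Gapdhs* and *Aldoart1*.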
